A study of Rattus norvegicus with 8 samples.

Results

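Kcnh7 (ENSRNOG00000007528), Kcnv1 (ENSRNOG00000004117), Kcnma1 (ENSRNOG00000005985), Kcnt2 (ENSRNOG00000013312) and Kcna4 (ENSRNOG00000004918) are 5 potassium channel genes measured by RNA-seq in rat dorsal root ganglia (DRGs), out of 32623 genes in the deposited table. All 5 were among the 16988 genes with enough reads to be tested. They were selected on their measured values, because the study lists them among genes raised by nerve injury in males and as genes whose change differs between the sexes. Their levels and changes are therefore given here as a description, without a test. The libraries were made from ipsilateral L4-L6 DRGs of adult Sprague Dawley rats, 1 rat per library, with 2 naïve males, 2 naïve females, 2 males and 2 females after chronic constriction injury (CCI). In CCI the sciatic nerve is tied loosely with 4 silk sutures, and tissue was taken on day 14. Naïve rats had no treatment, so surgery and nerve injury were not separated by a sham group. The total count was 39489103 to 60818457 reads per library.

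Potassium channels let potassium leave the neuron, which brings the membrane back to rest after an action potential and limits repetitive firing. In the DRG they are carried by the cell bodies of primary sensory neurons, where the mix of voltage-gated, calcium-activated and sodium-activated channels helps to set excitability. Kcnh7 encodes an ether-a-go-go related (erg) voltage-gated channel. Kcnv1 encodes a silent subunit, which forms no working channel alone but joins pore-forming subunits of other voltage-gated channels and alters their current. Kcnma1 encodes the pore of the large-conductance BK channel, opened by calcium and voltage together. Kcnt2 encodes the sodium-activated channel Slick. Kcna4 encodes a rapidly inactivating A-type channel of the Shaker family, known from small sensory neurons.

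The promoters of 4 of the 5 genes were matched by symbol in RefSeq (GRCr8), and Kcnv1 was not matched. Each window runs from 250 bases before the annotated start to 50 bases after it. To compare base composition, 3 windows are shown, and a link between these windows and the levels of the genes was not tested. Capitals mark the GC box GGGCGG on either strand, and adjacent boxes can share letters. Kcnh7 lies at chr3:68230622-68230921 on the minus strand, Kcnma1 at chr15:351675-351974 on the plus strand and Kcna4 at chr3:114215086-114215385 on the plus strand.
Kcnh7: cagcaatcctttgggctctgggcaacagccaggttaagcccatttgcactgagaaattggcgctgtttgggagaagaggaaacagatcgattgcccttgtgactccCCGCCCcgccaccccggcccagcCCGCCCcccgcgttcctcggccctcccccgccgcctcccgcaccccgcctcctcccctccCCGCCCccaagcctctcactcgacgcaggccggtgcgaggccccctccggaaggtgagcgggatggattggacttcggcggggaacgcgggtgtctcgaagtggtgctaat
Kcnma1: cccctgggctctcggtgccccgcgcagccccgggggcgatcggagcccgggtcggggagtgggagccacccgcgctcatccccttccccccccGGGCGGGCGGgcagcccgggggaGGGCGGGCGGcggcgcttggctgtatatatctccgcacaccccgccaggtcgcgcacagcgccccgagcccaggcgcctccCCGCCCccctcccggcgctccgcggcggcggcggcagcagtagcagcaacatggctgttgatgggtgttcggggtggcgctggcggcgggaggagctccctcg
Kcna4: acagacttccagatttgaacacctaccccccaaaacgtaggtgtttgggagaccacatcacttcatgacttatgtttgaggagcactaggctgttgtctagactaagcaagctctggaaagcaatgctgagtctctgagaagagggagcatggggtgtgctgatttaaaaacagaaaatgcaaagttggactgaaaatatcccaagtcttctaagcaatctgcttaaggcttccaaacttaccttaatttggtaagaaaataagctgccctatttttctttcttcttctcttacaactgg
The windows differed in base composition. GC content was 67.3% in Kcnh7, 78.3% in Kcnma1 and 62.3% in Kcnt2, against 41.7% in Kcna4 and a median of 51.7% over the 33469 promoters of the table. The GC box occurred 3 times in Kcnh7, 5 times in Kcnma1, 1 time in Kcnt2 and not in Kcna4, and 33.1% of all promoters held it. The AP-1 motif TGANTCA (in 7.33% of all promoters), the CRE TGACGTCA (1.83%), the E-box CACGTG (6.42%) and the TATA box TATAAA (14.2%) were searched on both strands, and these letters were in none of the 4 windows.

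In males after CCI all 5 genes had higher levels than in naïve males, by 1.59-fold to 2.05-fold. In females the same comparison gave folds from 0.971 to 1.35. Expression is given as CPM, each gene's read count relative to the TMM-scaled total of its library, and it is not corrected for gene length, so levels are compared within a gene and not between genes.

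For Kcnh7, the erg channel gene, naïve males had 32.2 and 36.8 CPM, CCI males 67.4 and 64.8, naïve females 52.3 and 49.98, and CCI females 47.2 and 52.9. Both CCI males lay above every other rat, both naïve males lay below every other rat, and the female groups overlapped. The log2FC (log2 of the fold, CCI over naïve) was 0.94 ± 0.0934 (SE) in males and -0.04 ± 0.0884 in females. Naïve females exceeded naïve males by a log2FC of 0.57 ± 0.0936, and CCI females were below CCI males by -0.40 ± 0.0789.

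Kcnv1, the silent subunit, measured 11.9 and 15.2 CPM for naïve males, 28.1 and 27.3 for CCI males, 17.8 and 15.8 for naïve females and 21.8 and 23.7 for CCI females. All 4 groups were apart, in the order naïve male, naïve female, CCI female and CCI male. The gap between the higher naïve male and the lower naïve female was small, at 15.2 against 15.8 CPM. The log2FC after CCI was 1.04 ± 0.137 in males and 0.43 ± 0.107 in females.

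Kcnma1, the BK channel pore, measured 26.6 and 30.2 CPM for naïve males, 52.4 and 53.2 for CCI males, 37.6 and 34.3 for naïve females and 45.04 and 45.56 for CCI females. The groups did not overlap and followed the same order as for Kcnv1. Its log2FC after CCI was 0.90 ± 0.0894 in males and 0.32 ± 0.0867 in females.

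For Kcnt2, the Slick channel gene, naïve males had 15.6 and 17.7 CPM, CCI males 30.1 and 26.5, naïve females 23.9 and 21.0, and CCI females 22.7 and 24.2. The male groups were apart from each other and from the females, and the female groups overlapped. The log2FC after CCI was 0.77 ± 0.104 in males and 0.05 ± 0.103 in females.

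Kcna4, the A-type channel gene, measured 23.2 and 29.1 CPM for naïve males, 42.3 and 40.7 for CCI males, 30.2 and 36.7 for naïve females and 34.1 and 34.8 for CCI females. The male groups were apart, both CCI females lay between the naïve females, and the lower naïve female exceeded the higher naïve male by 1.04-fold. Its log2FC after CCI was 0.67 ± 0.126 in males and 0.03 ± 0.111 in females.

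**Figure D1:**
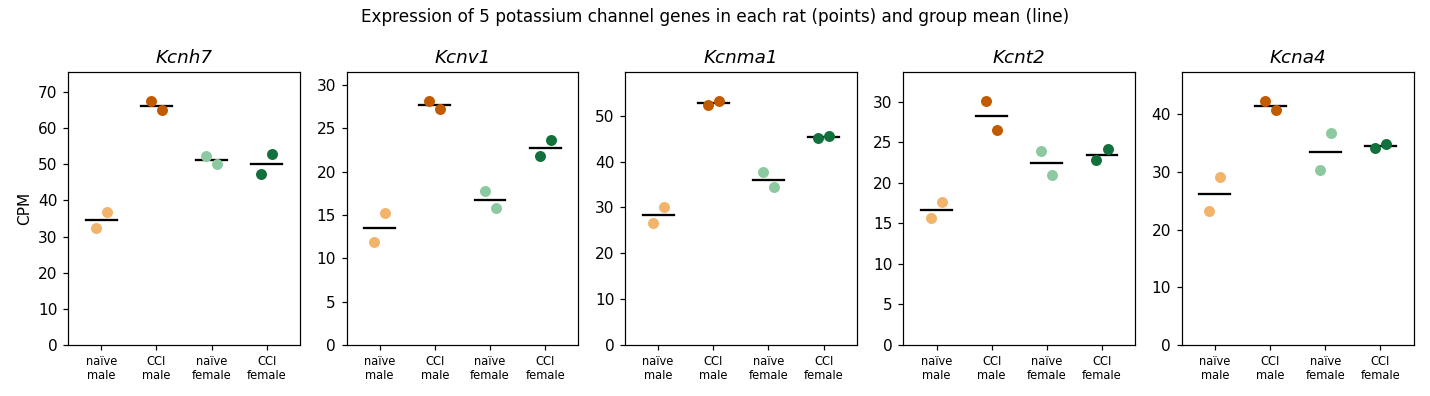
CPM of the 5 genes in each rat (y axis, linear, from 0) by group (x axis), with points for the 2 rats of a group and lines for their mean. For each gene the naïve males are the lowest and the CCI males the highest, from 11.9 CPM for Kcnv1 in a naïve male to 67.4 CPM for Kcnh7 in a CCI male.

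Both female groups lay between the male groups for all 5 genes, as they did for some of the other channel genes given below. The share of all genes tested with this pattern was not computed, so nothing is read from it. Positions were set on the step in mean log2 CPM from naïve males (0%) to CCI males (100%). On this log2 scale naïve females stood at 30.5% for Kcnv1, 38.3% for Kcnma1, 53.2% for Kcna4, 56.3% for Kcnt2 and 60.6% for Kcnh7. CCI females stood at 57.0% for Kcnh7, 60.4% for Kcna4, 65.1% for Kcnt2, 72.6% for Kcnv1 and 75.5% for Kcnma1. The largest CV between the 2 rats of a group was 17.4%, for Kcnv1 in naïve males, and the smallest was 0.816%, for Kcnma1 in CCI females. Counts ran from 621 to 3935 reads per gene and library, which gives a counting SD of 4.01% to 1.59%. Naïve male 1 had lower levels than naïve male 2 in 5 of the 5 genes, by 0.18 to 0.36 on the log2 scale, whereas over all genes rat 1 was higher by a median of 0.02. CCI female 1 was also below CCI female 2 in 5 of the 5, by 0.02 to 0.16. Groups that did not overlap between CCI and naïve males with higher CCI values were found for 5 of the 5 genes and for 36.3% of all genes tested. In females this was so for 2 of the 5, Kcnv1 and Kcnma1, and for 30.5% of all genes. Naïve females lay above naïve males without overlap in 5 of the 5, against 29.5% of all genes, and CCI females below CCI males in 5 of the 5, against 26.5%. The comparisons share libraries, so these counts are not separate pieces of evidence.

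A gene was called where its adjusted p fell under 0.05 and its log2FC exceeded 0.5 in size (edgeR's quasi-likelihood test, Benjamini-Hochberg over all genes tested). The 5 genes were chosen on the male contrast, on the lack of a listed change in females and on the difference between the sexes, so the counts that follow describe the choice and nothing is read from them. In males 5 of the 5 genes passed these limits upward, as did 9.05% of all genes, while 12.5% passed downward. Without CCI male 1, 0 of all genes tested passed in males. In females 0 of the 5 passed upward, where 3.69% of all genes did, and 0 downward, where 2.0% did. Between naïve sexes 0 of the 5 passed, with 0.0177% of all genes higher and 0.0530% lower in females. These shares depended on the fit. DESeq2 called 268 of all genes higher and 728 lower in naïve females, and the edgeR fit over all 8 libraries 213 and 693. Between CCI females and CCI males 0 of the 5 passed, with 0.524% of all genes higher and 0.536% lower in females. The interaction of sex and CCI, called where the adjusted p fell under 0.05, with no log2FC limit, was passed by 1 of the 5, Kcnh7, in the direction of a lower change in females, against 0.547% of all genes in that direction and 1.04% in the other. Without naïve male 1, CCI male 1, CCI male 2 or CCI female 2, 0 of all genes were called in that direction, so the call of Kcnh7 was lost. Of the 5 genes, Kcna4 at 0.67 was the closest above the log2FC limit in males. Just short of the limit, among the other channel genes shown, was Kcnab1 at 0.48.

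**Figure D2:**
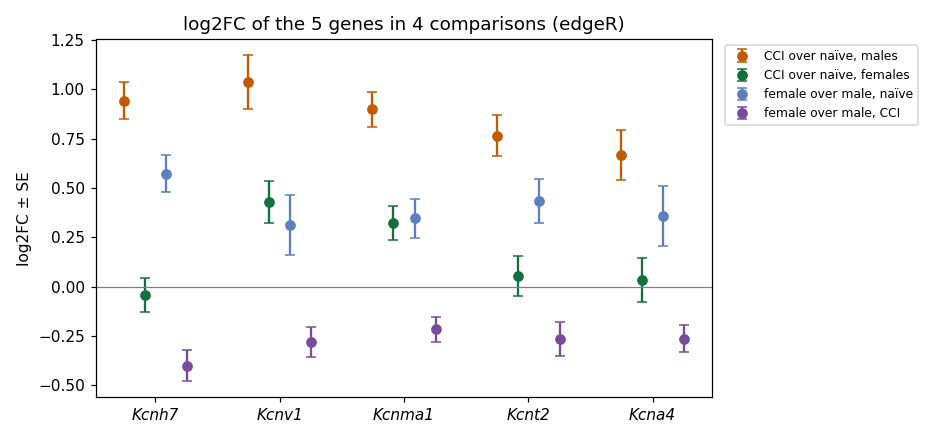
log2FC with its SE (y axis) of each of the 5 genes (x axis) in 4 comparisons, shown by colour. Values for CCI in males are 0.67 to 1.04, those for naïve females over naïve males 0.31 to 0.57, and those for CCI females over CCI males are below 0, from -0.40 to -0.22.

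As a median over the 5 genes, the log2FC was 0.90 in CCI males, 0.05 in CCI females and 0.36 between naïve females and naïve males. All genes tested had medians of -0.01, -0.02 and -0.01 in the same comparisons. The difference of the change between sexes (female minus male) was -0.97 ± 0.127 for Kcnh7, -0.70 ± 0.148 for Kcnt2, -0.62 ± 0.177 for Kcna4, -0.60 ± 0.176 for Kcnv1 and -0.56 ± 0.116 for Kcnma1.

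The other potassium channel genes came from a list of 97 symbols, of which 18 could be tied to an identifier through the study's tables. Besides the 5 described above these are 13 genes, and because those tables list genes called on these libraries, the 13 are not an independent sample of the family. In males 4 of the 13 rose and 2 fell, against 9.05% of all genes called higher and 12.5% called lower. By edgeR 12 of 13 had an unadjusted p under 0.05, as did 8370 of the 16988 genes tested. The median log2FC of the 13 was 0.37, against -0.01 over all genes. Kcnb2, the gene of a delayed rectifier channel that accepts silent subunits such as Kcnv1, rose. Dpp6 and Dpp10, accessory subunits of A-type channels, rose as well, and the other 3 auxiliary subunit genes were not called.

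Kcnb2 had 11.5 and 12.4 CPM in the naïve males against 21.3 and 22.1 after CCI (log2FC 0.86 ± 0.0822, adjusted p = 0.00565, edgeR). Dpp6 had 262 and 287 CPM in the naïve males against 440.1 and 461 after CCI (log2FC 0.72 ± 0.0810, adjusted p = 0.00609). Dpp10 had 107 and 114 CPM in the naïve males against 186 and 175 after CCI (log2FC 0.71 ± 0.0711, adjusted p = 0.00565). In each of these genes both CCI males exceeded both naïve males. In the opposite direction, Kcnk5, an acid-sensitive background (leak) channel gene, had 7.76 and 6.58 CPM in the naïve males against 4.08 and 3.69 after CCI (log2FC -0.88 ± 0.144, adjusted p = 0.0113). Kcnj14, an inward rectifier gene, had 8.01 and 6.60 CPM in the naïve males against 4.61 and 4.44 after CCI (log2FC -0.69 ± 0.142, adjusted p = 0.0203). Both female groups lay between the male groups without overlap in Kcnb2, Dpp6, Dpp10, Kcna2 and Kcnab1, as in the described genes. With the male order reversed this was also so for Kcnj14, but not for the rest of the other channel genes. The share of all genes with this pattern was not computed. Without CCI male 1, edgeR called 0 of all genes tested in males, so 0 of the 6 calls in males held. Without CCI male 2 or without naïve male 1, 0 of the 13 were called lower.

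**Figure D3:**
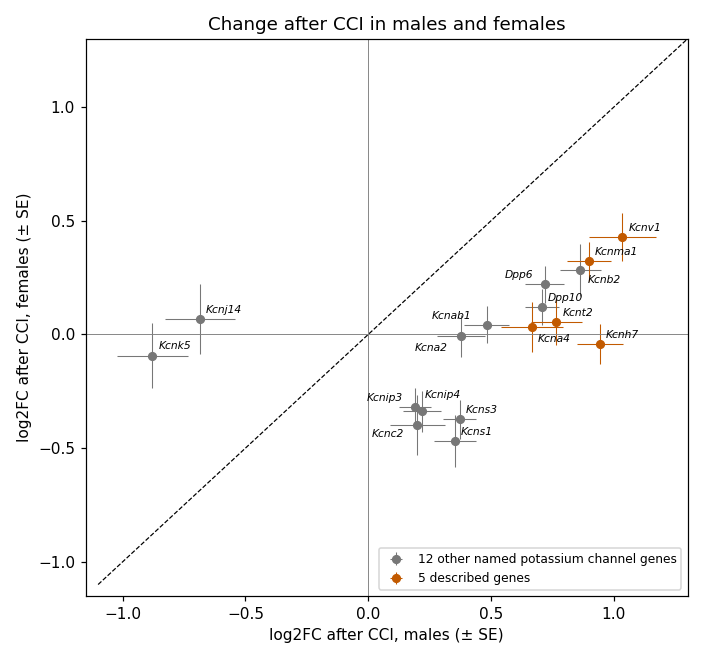
log2FC after CCI in females (y axis) against log2FC in males (x axis) for 17 potassium channel genes, with SE bars, the 5 described genes in orange and 12 others in grey. Along the dashed line the change is equal in both sexes, and the 5 genes lie below it, with male values of 0.67 to 1.04 and female values of -0.04 to 0.43.

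In females 0 of the 13 were called by edgeR and 0 by DESeq2, with 7 of 13 at an unadjusted p under 0.05 (4882 of all 16988 genes) and a median log2FC of -0.01. Kcns1 and Kcns3, silent subunits of the same class as Kcnv1, had log2FC of -0.47 ± 0.115 and -0.37 ± 0.0849, with adjusted p of 0.0460 and 0.0363 (edgeR) but inside the 0.5 limit. Kcns1 measured 64.0 and 53.0 CPM for naïve females against 39.5 and 45.7 after CCI, so its female groups did not overlap. In males Kcns1 and Kcns3 had log2FC of 0.35 ± 0.0867 and 0.37 ± 0.0667, also inside the limit. Between naïve sexes edgeR called 0 of the 13 (8 at an unadjusted p under 0.05, as were 4345 of all genes) and DESeq2 called 1, Kcnip4, a calcium-binding partner of A-type channels. Kcnip4 had 61.4 and 64.2 CPM in naïve males and 99.1 and 86.7 in naïve females. Between CCI females and CCI males edgeR called 0 (8 at an unadjusted p under 0.05, as were 3111 of all genes) and DESeq2 called 1, Kcnk5, which had 6.59 and 6.14 CPM in CCI females.

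The interaction was called for 2 of the 13, in both cases with a lower change in females, against 0.547% of all genes in that direction. Kcns3 measured 79.1 and 84.2 CPM for naïve males, 107 and 104 for CCI males, 115 and 103 for naïve females and 82.7 and 86.7 for CCI females. Its values were higher after CCI in males and lower after CCI in females, with a difference of -0.73 ± 0.105 (adjusted p = 0.0412, edgeR). Dpp10 measured 152 and 144 CPM for naïve females against 163 and 161 after CCI, a smaller difference than in males (-0.57 ± 0.0956, adjusted p = 0.0483). Because the 13 were named through tables of genes called on these libraries, their counts here also describe that choice. They are no evidence about the whole family. All 13 had an unadjusted p under 0.05, 11 with a lower change in females, against 4085 of all genes in either direction. DESeq2 called 11, against 798 of all genes with a lower and 820 with a higher change in females. The number of calls dropped to 0 when naïve male 1, CCI male 1, CCI male 2, naïve female 1, CCI female 1 or CCI female 2 was left out, and it was 4 without naïve female 2.

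**Figure D4:**
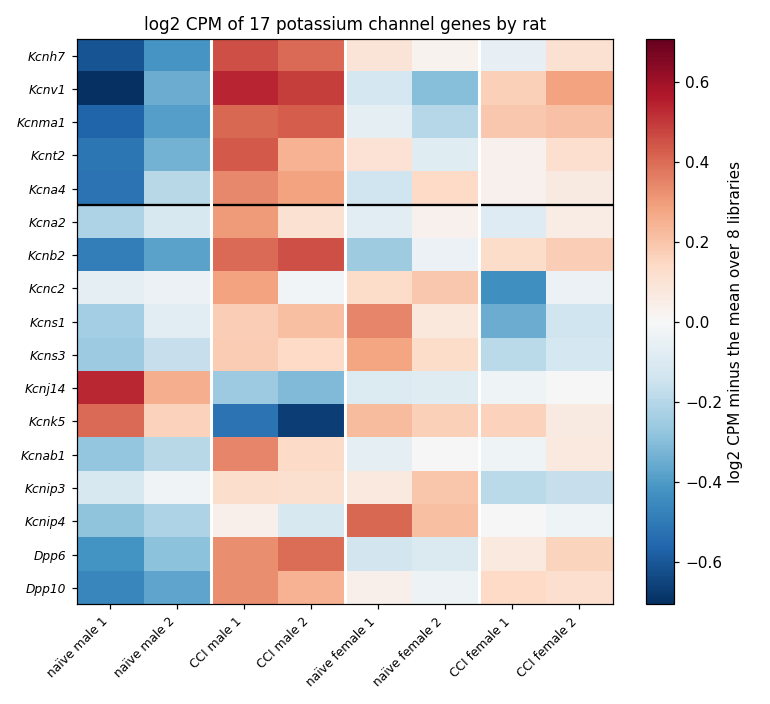
log2 CPM minus the gene's mean over the 8 libraries (colour scale) for 17 potassium channel genes (rows) in each rat (columns), with the 5 described genes above the black line. Naïve males are below and CCI males above the mean for the 5 genes, and Kcnj14 and Kcnk5 show the opposite.

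Across the 8 libraries, Pearson's r of log2 CPM between any pair of the 5 genes was 0.875 to 0.990 (10 pairs, median 0.921). Kcnv1 and Kcnma1 were most alike. These points share libraries and group differences, and the 5 genes were chosen for like changes, so r is a description. Some other channel genes were as close, with r of 0.984 between Kcnma1 and Dpp6, 0.979 between Kcnv1 and Dpp6, and 0.976 between Kcnt2 and Dpp10. Others were not, such as Kcnc2 (0.0435 with Kcnma1), and Kcnj14 was inverse (-0.968 with Kcnh7). The search for the closest genes covered 1955 others with a symbol, all from the study's tables of genes called on these libraries. Most genes tested had no symbol and were not compared. Among the 1955, those closest to Kcnh7 were Entpd3, an ecto-nucleotidase (r 0.993), Nptn (0.990) and Pomgnt2 (0.988). Entpd3 measured 63.2 and 66.5 CPM for naïve males, 91.8 and 91.3 for CCI males, 79.4 and 77.4 for naïve females and 78.5 and 80.7 for CCI females, again with both female groups between the male groups. Kcnv1 was closest to Myo5a, an actin motor, Ermp1 and Serpini1 (r 0.988 each), and Kcnma1 to Snx6 (0.995), Ermp1 (0.990) and Robo2, an axon guidance receptor (0.989). Kcnt2 was closest to Micu3, a regulator of mitochondrial calcium uptake (0.996), Rab9b (0.993) and Mrgprx1, a receptor of itch- and pain-sensing neurons (0.993). Kcna4 was closest to Parm1 (0.974), F2r, the thrombin receptor (0.974), and Rtn4rl1 (0.968).

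Markers of the cell types in the ganglion differed between the groups too. The study's tables gave identifiers for only some of each marker list, and those genes were picked on these libraries. Over all genes tested, 9.05% were called higher and 12.5% lower after CCI in males, and 3.69% and 2.0% in females. Of 20 sensory neuron markers 10 could be used, none at 0 in every library, and 8 of the 10 rose in CCI males. In CCI females 0 of the 10 rose and 1 fell, Pvalb, a calcium-binding protein of proprioceptive neurons, from 170 and 138 to 77.5 and 95.7 CPM. The summed level of all 10 was 18886 and 21303 CPM for naïve males, 30714 and 31537 for CCI males, 23201 and 23894 for naïve females and 24133 and 28618 for CCI females. This is the same order of groups as for 4 of the 5 channel genes, and the share of all genes with this order was not computed. Of the myelin and Schwann cell genes 6 of 6 fell in males, with sums of 13149 and 10785 CPM in naïve males against 3399 and 3243 in CCI males, and 2 of 6 fell in females. Both satellite glia genes and 3 of 3 fibroblast genes fell in males, against 1 of 2 and 0 of 3 in females. The 6 nerve injury genes rose in both sexes, 6 of 6 each. Of the 7 blood genes 0 were called in males and 7 fell in females, the 2 muscle genes rose in males and 1 fell in females, the 1 leukocyte gene was not called after CCI in either sex, and no endothelial marker had an identifier. The blood genes summed to 130 and 1388 CPM in the naïve males.

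**Figure D5:**
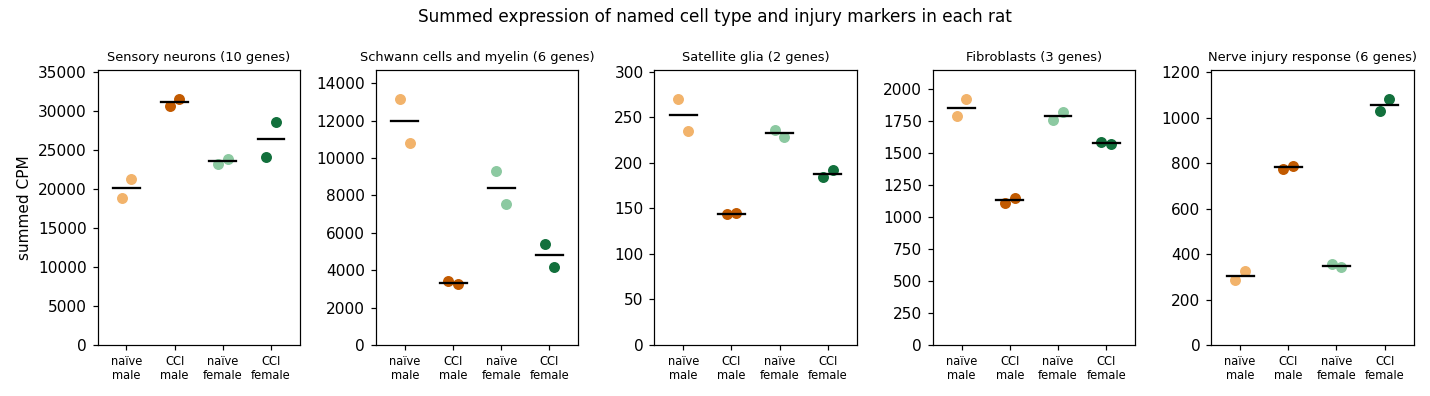
Summed CPM (y axis, linear, from 0) of 5 marker lists in each rat, with points for the 2 rats of a group and lines for their mean. Sensory neuron markers are highest in the CCI males (30714 and 31537 CPM) and myelin markers lowest there (3399 and 3243 CPM).

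Set against the sum of the 10 neuronal markers, a scaling chosen after the data were seen, the male groups differed less in each of the 5 channel genes. The neurofilament genes Nefl, Nefm and Nefh made up most of that sum, with 5295, 5937 and 3320 of 18886 CPM in naïve male 1. The log2 ratio of CCI over naïve males was then 0.41 for Kcnv1, 0.31 for Kcnh7, 0.26 for Kcnma1, 0.13 for Kcnt2 and 0.04 for Kcna4. Male groups did not overlap for the first 4 of these and overlapped for Kcna4. The share of all genes without overlap was not computed under this scaling, so nothing is read from this. In females the ratio was 0.28 for Kcnv1, 0.18 for Kcnma1, -0.09 for Kcnt2, -0.11 for Kcna4 and -0.19 for Kcnh7, farther from 0 than without this scaling for the last 3, and the CCI females lay below the naïve females without overlap for Kcnh7. Between naïve sexes it was 0.34 for Kcnh7, 0.20 for Kcnt2, 0.13 for Kcna4, 0.12 for Kcnma1 and 0.09 for Kcnv1. The naïve sexes overlapped for Kcna4 and Kcnv1. In bulk DRG tissue, fewer cells of a type and less RNA per cell cannot be told apart, and the part of the cell markers in the channel results was not tested.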

How the data were processed

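RNA-seq was run on 8 libraries, 1 rat each. The authors aligned strand-specific poly(A) reads to rn6 with HISAT2, removed ribosomal RNA reads and counted reads per Ensembl gene with featureCounts, and the deposited values are these raw counts without normalization. The submitters' notes also name CASAVA 1.8.2. Sequencing used 2 batches, and the batch of each library is not given in the sources used here, so no within-batch value could be computed and batch and group cannot be told apart. Genes were kept with edgeR's filterByExpr (minimum count 10, minimum total 15). TMM scaled the counts, and a prior count of 2 was added for log2 CPM. R 4.3.3 with edgeR 4.0.16 gave the quasi-likelihood tests, each on the 4 libraries compared and the interaction on 8, and DESeq2 1.42.0, which the authors used, was an alternative. The SE is the size of the log2FC divided by the square root of F. The fits were tested on simulated data. With 2 rats a group, no exact test can pass 0.05, so none is given. The members, marker lists and the potassium channel list were chosen with earlier results of these data known. Named are the 5 members, up to 6 called channel genes per direction and comparison, Kcnb2, and the 3 genes most like each member. Kcna2, Kcnab1, Kcnc2, Kcns1, Kcnip4 and Kcnk5 between CCI sexes were named after their values were seen. The study also names Kcnq3 and Kcnq5, which were not analysed here. Counts over the channel list include 1 gene that is not reported here by itself. Symbols came from the study's tables (1961 identifiers). Figures used Python 3.11.15 and matplotlib 3.10.9.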

Additional observations from a re-analysis of the deposited data

Results flagged for a closer look

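Among the 13 other potassium channel genes, 2 had a change after CCI that differed between the sexes by the test of the interaction itself (edgeR's quasi-likelihood test, adjusted over all genes). The change of Kcns3 was lower in females than in males by a log2FC difference of -0.73, and that of Dpp10 by -0.57. In that direction 0.547% of all genes were called, and 1.04% in the other. The 13 came from the study's tables of genes called on these libraries, so these shares are no fair reference for them. The calls of Kcns3 and Dpp10 were both lost when any of 6 of the 8 libraries was left out.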

How the results depend on the processing

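The log2FC of each of the 5 genes kept its sign in males under each of the 12 other settings, as it did between naïve females and naïve males. Leaving out 1 library gave male ranges of 0.84 to 1.04 for Kcnh7, 0.86 to 1.23 for Kcnv1, 0.80 to 0.99 for Kcnma1, 0.67 to 0.86 for Kcnt2 and 0.51 to 0.84 for Kcna4. In females it gave -0.116 to 0.0474 for Kcnh7, -0.03 to 0.15 for Kcnt2 and -0.10 to 0.18 for Kcna4, so their sign is not set by these libraries, against 0.35 to 0.51 for Kcnv1 and 0.26 to 0.39 for Kcnma1. Relative to 10 neuronal markers, added after the data were seen, male values were 0.31 for Kcnh7, 0.41 for Kcnv1, 0.26 for Kcnma1, 0.13 for Kcnt2 and 0.0380 for Kcna4. Female values were -0.19, 0.28, 0.18, -0.0938 and -0.11, and those between naïve sexes 0.34, 0.0883, 0.12, 0.20 and 0.13, in the same order of genes. Between CCI sexes Kcnma1 turned from -0.22 to 0.0286 under this scaling, and the others shrank in size. They went from -0.40 to -0.16 for Kcnh7, -0.28 to -0.0411 for Kcnv1, -0.26 to -0.0240 for Kcnt2 and -0.26 to -0.0194 for Kcna4. Only for Kcnh7 did CCI females stay below CCI males without overlap.

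Of the other channel genes, calls in males ranged from 0 to 5 higher and 0 to 2 lower when 1 library was left out, and 8 were higher without a log2FC limit. In females 0 to 1 were lower when 1 library was left out, and 2 without a log2FC limit. Higher in naïve females was 1 by DESeq2 and 1 by the edgeR fit over all 8 libraries, and higher in CCI females 1 by DESeq2. Interactions with a lower change in females numbered 11 by DESeq2, 7 without a filter, 4 with at least 10 counts in every library, and 0 to 4 when 1 library was left out. The cause of these shifts was not tested, except that leaving out a library leaves 1 rat in its group, assumed to vary like the others. With the replicate number as a block, calls in males stayed at 4 higher and 2 lower, those in the other group comparisons at 0, and 3 interactions were called. Over all genes, differences between rats 1 and 2 correlated at 0.731 between naïve and CCI males and at -0.02 to 0.142 between other groups, and no label says that rats with 1 number belong together. In the deposited table, the column names of naïve male 1 and CCI male 1 share an ending that no other library has, and its meaning is not given in the sources used here. With 2 rats a group, a small log2FC cannot be separated from 0.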
